A study of Mus musculus with 21 samples.

Results

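Transfer RNAs of the cerebrum were compared between mice with a Polr3a mutation and wildtype mice. This comparison covers 10 of the 21 libraries in the study, 4 from mutants and 6 from wildtype mice, chosen by the tissue and genotype in their labels, and all tRNA rows of the cerebrum count table. All mice were of the C57BL/6J strain and all received tamoxifen, which induced recombination on postnatal day 28, and tissue was flash frozen on day 42. The mutant group held 2 males (replicates 1 and 3) and 2 females (replicates 2 and 4), and the wildtype group 4 males (1, 2, 4 and 6) and 2 females (3 and 5). The labels name neither the mutated residue nor the promoter that drives the recombinase, and they do not say that each library came from a separate animal, so the p-values reflect the spread among these 10 libraries and nothing wider. Neither Polr3a mRNA nor any marker of brain tissue is counted in a tRNA library, so genotype and tissue could not be checked in the counts.

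RNA polymerase III transcribes the nuclear tRNA genes, and POLR3A is its largest, catalytic subunit. Mutations of this enzyme are known in people with leukodystrophies. Nuclear tRNA genes form families, and tRNAs that share an anticodon but differ elsewhere in sequence are called isodecoders. A row name such as Ala-AGC-1-1 gives the amino acid, the anticodon in DNA letters and the number of the isodecoder. Mitochondrial tRNAs are encoded in the mitochondrial genome and are made there by a different polymerase. They served here, with a bacterial glutamine tRNA spike-in, as references for the nuclear pool.

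The table held 209 tRNA rows, 187 nuclear and 22 mitochondrial, of which 208 passed the filter on low counts; the nuclear row Cys-GCA-21-1 did not. The libraries held 4353056 to 7588902 tRNA counts, and the spike-in added 0.222% to 0.374%. The sources used here do not state how a read matching more than 1 close isodecoder was counted, so the division of counts between near-identical isodecoders is uncertain.

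Sequences of the nuclear isodecoders are not used here. Mitochondrial sequences are shown because these tRNAs stand in for what RNA polymerase III does not make, and because 2 of them carry anticodons that nuclear families discussed below also carry. They are given 5′ to 3′ in DNA letters from the GENCODE M21 annotation of mm10, with the anticodon in capitals.
mt-Tv, mitochondrial valine tRNA (chromosome M, 1025 to 1093, plus strand): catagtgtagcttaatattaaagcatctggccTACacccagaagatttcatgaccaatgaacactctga
mt-Ty, mitochondrial tyrosine tRNA (chromosome M, 5260 to 5326, minus strand): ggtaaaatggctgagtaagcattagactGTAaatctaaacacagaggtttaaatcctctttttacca
mt-Tm, mitochondrial methionine tRNA (chromosome M, 3845 to 3913, plus strand): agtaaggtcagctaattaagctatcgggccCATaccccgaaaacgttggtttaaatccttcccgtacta
The anticodon of mt-Ty is that of the nuclear Tyr-GTA family, and the anticodon of mt-Tm is that of the nuclear methionine families.

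The nuclear pool was smaller in mutants against both references. Nuclear counts per mitochondrial count were 6.79, 6.13, 5.39 and 5.77 in mutants 1 to 4, and 7.57 at the lowest, 7.87 at the median and 8.65 at the highest in wildtype. All 4 mutants lay below all 6 wildtype libraries. The difference was −0.40 ± 0.08 on the log2 scale (SE; two-sided exact permutation test, p = 0.00952, the lowest value that 210 assignments can give; adjusted p = 0.0190 over the 2 references), which put the mutants at 75.7% of wildtype. Nuclear counts per spike-in count were 256.8, 261.1, 224.9 and 309.3 in the mutants, and 279.95, 327.7 and 398.3 at the lowest, median and highest wildtype library. Here mutants 1, 2 and 3 lay below all wildtype libraries and mutant 4 lay within their range. The difference was −0.36 ± 0.12 (SE; exact permutation p = 0.0286, adjusted p = 0.0286), or 78.0% of wildtype.

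The spike-in result did not pass without mutant 1, 2 or 3, at −0.35, −0.36 and −0.29 respectively, against −0.36 with all libraries. Leaving a mutant out also raises the lowest p that the permutation test can give. The ratio of mitochondrial to spike-in counts showed a log2 difference of 0.04 ± 0.13 (SE; p = 0.743, exact permutation test). Within males the log2 difference was −0.39 per mitochondrial count and −0.53 per spike-in count, and within females −0.40 and −0.14. Exact permutation tests within 1 sex cannot go below p = 0.133 in males and p = 0.333 in females. The mitochondrial rows and the spike-in were also joined into 1 reference. It was the median ratio over 22 mitochondrial rows and the spike-in, so the mitochondrial rows largely set it. On this reference mutants 1 to 4 stood at 93.1%, 76.3%, 64.6% and 68.7% of the wildtype mean. The wildtype libraries ran from 93.2% to 118.7%. Mutant 1 was thus close to the lowest wildtype library on this measure, and the other 3 mutants lay well below it. In bulk tissue, fewer cells of a type and less tRNA per cell cannot be told apart, and the sources used here do not state how much spike-in each library received.

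**Figure D1:**
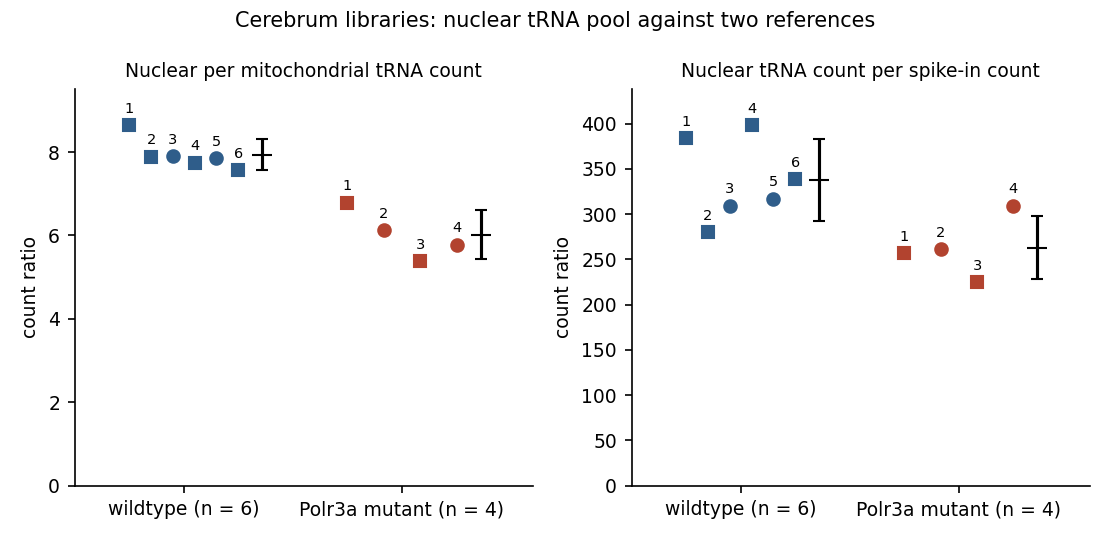
Nuclear tRNA counts per mitochondrial tRNA count (left) and per spike-in count (right) in each cerebrum library. Numbers are replicates, squares are males, circles are females, and bars give mean and SD; the 4 mutants sit between 5.39 and 6.79 on the left, below every wildtype library, while on the right mutant 4 falls within the wildtype range.

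Single isodecoders were then tested relative to the rest of the pool, with TMM scaling, which holds most tRNAs constant. Of 186 nuclear isodecoders, 24 fell and 2 rose (quasi-likelihood test of edgeR with Benjamini-Hochberg adjustment, threshold 0.05). Over all 208 tRNAs tested, 19.7% passed by this rule, 11.5% lower and 8.17% higher. The higher calls included 15 of the 22 mitochondrial rows, and 0 mitochondrial rows were lower. The falls covered 13 amino acids, so they were not gathered in 1 isotype. In 17 of the 24, every mutant lay below every wildtype library. Such a separation with mutants lower was found in 9.62% of all 208 rows. The 24 isodecoders together made up 2.81% ± 0.459 (SD, n = 4) of nuclear counts in mutants and 4.45% ± 0.490 (SD, n = 6) in wildtype. They were chosen as lower in these same libraries, so this difference is a description of their size and no separate comparison.

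The lowest p was that of an alanine isodecoder with the anticodon AGC, whose first base is edited to inosine in cells. Ala-AGC-1-1 stood at 37.8, 49.7, 47.6 and 40.1 CPM in mutants 1 to 4, against 115, 131 and 162 CPM at the lowest, median and highest wildtype library. The groups lay far apart, and the fall was −1.62 ± 0.16 on the log2 scale (SE, edgeR adjusted p = 3.37e-07), a change of −67.4%. Ala-AGC-5 stood at 602, 794, 653 and 609 CPM in mutants and at 1110.3, 1386 and 1994 CPM in wildtype. It changed by −1.11 ± 0.17 (SE, edgeR adjusted p = 0.000114), again with no overlap. Of 21 alanine isodecoders tested, these were the only 2 to fall on this scale (9.52%, against 12.9% of all nuclear isodecoders).

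Methionine tRNAs divide into an initiator, which starts every protein chain, and elongators, which insert methionine within it. Among 6 elongator isodecoders, 3 fell, where 12.9% of all nuclear isodecoders did. Met-CAT-4-1 had 46.1, 75.4, 51.1 and 58.9 CPM in mutants, and 121, 188 and 281 CPM at the lowest, median and highest wildtype library. Its fall of −1.75 ± 0.21 (SE, edgeR adjusted p = 4.72e-06) was the steepest of all tRNAs tested on this scale. Met-CAT-6-1 (−0.78) and Met-CAT-3-1 (−0.51) also fell, but their groups overlapped, and neither passed in every run with 1 library left out. None of the 3 initiator rows passed. iMet-CAT-1 had 18729, 17147, 17888 and 18044 CPM in mutants against 13850.1 to 18525 in wildtype, a difference of 0.17 ± 0.12 (SE, edgeR adjusted p = 0.318). iMet-CAT-2-1 and iMet-CAT-3-1 stood at 0.16 and 0.19.

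Valine tRNAs held 4 falls among 11 isodecoders (36.4%, against 12.9% of all nuclear isodecoders), the highest number of any amino acid. The share that fell was higher for elongator methionine (3 of 6) and tyrosine (2 of 5). Val-AAC-2 had 166, 223, 249 and 203 CPM in mutants and 336, 403 and 439 CPM in wildtype, a change of −0.91 ± 0.14 (SE, edgeR adjusted p = 0.000114). Val-CAC-1-1 had 129.6, 169, 132 and 130.0 CPM in mutants and 181, 305 and 319 CPM in wildtype (−1.02 ± 0.16 SE, edgeR adjusted p = 0.000137). The groups did not overlap for either, and wildtype 6 was the low wildtype library for Val-CAC-1-1. Val-AAC-4-1 (−0.77) and Val-CAC-3-1 (−0.58) fell too, with mutants below all wildtype libraries. The median valine isodecoder stood at −0.32, against −0.07 for all nuclear tRNAs tested.

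Threonine tRNAs with the anticodon AGT held 2 falls. Thr-AGT-6-1 had 555, 663, 572 and 588 CPM in mutants and 782, 1188 and 1362 CPM in wildtype, a change of −0.96 ± 0.15 (SE, edgeR adjusted p = 0.000114). The groups did not overlap, although wildtype 2 lay near the mutants. Thr-AGT-5-1 changed by −0.73, also without overlap. Of 14 threonine isodecoders these 2 fell (14.3%, near the 12.9% of all nuclear isodecoders) and none rose.

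Among leucine tRNAs, which carry a long variable arm, 3 of 16 fell (18.8%, against 12.9% of all nuclear isodecoders). The median leucine isodecoder was at 0.09. Leu-CAA-4-1, from a family whose genes contain introns, had 49.1, 71.2, 58.0 and 65.9 CPM in mutants and 105, 122 and 191 CPM in wildtype (−1.13 ± 0.19 SE, edgeR adjusted p = 0.000187). Leu-TAA-1-1 had 2693, 3269.9, 2279 and 2595 CPM in mutants and 3011, 3789 and 4075 CPM in wildtype. Its groups overlapped through mutant 2, and its change of −0.45 ± 0.13 (SE, edgeR adjusted p = 0.0149) did not pass without mutant 3. Leu-AAG-3-1 changed by −0.59.

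Falls with large counts were also found among lysine, tyrosine and arginine tRNAs. Lys-TTT-2 had 2021, 1811, 1138 and 1515 CPM in mutants and 2515, 2978 and 3409.7 CPM in wildtype, with no overlap (−0.88 ± 0.15 SE, edgeR adjusted p = 0.000246). It was the only 1 of 12 lysine isodecoders to pass (8.33%, against 12.9% of all nuclear isodecoders). Tyr-GTA-1, whose genes contain introns, had 10194, 14456, 8859 and 12908 CPM in mutants and 13977, 19087 and 21352 CPM in wildtype. Mutant 2 lay just above wildtype 6, and the change was −0.63 ± 0.15 (SE, edgeR adjusted p = 0.0053). Arg-ACG-2-1 had 3161, 2991, 1996 and 2338 CPM in mutants and 3215, 4038 and 4370.4 CPM in wildtype. The groups were separate by a narrow margin between mutant 1 and wildtype 2 (−0.59 ± 0.14 SE, edgeR adjusted p = 0.00385).

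The other falls were Trp-CCA-6-1 (−1.25), Ser-GCT-1-1 (−1.03), Arg-TCT-5-1 (−0.78), Gly-GCC-1 (−0.72), Gln-TTG-2-1 (−0.67), Phe-GAA-2-1 (−0.63) and Tyr-GTA-5-1 (−0.46). Trp-CCA-6-1 rested on a mean of 38.2 counts per library and its groups overlapped. Gln-TTG-2-1 and Tyr-GTA-5-1 also overlapped and did not pass in every run with 1 library left out.

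The 2 rises were smaller and less stable. Arg-CCG-2-1 had 4444, 3383, 2678 and 3077 CPM in mutants and 2274, 2560.3 and 2953 CPM in wildtype, with mutant 3 inside the wildtype range (0.40 ± 0.13 SE, edgeR adjusted p = 0.0347). Cys-GCA-3 had 384, 269, 437 and 317 CPM in mutants and 194, 239 and 309 CPM in wildtype (0.51 ± 0.16 SE, edgeR adjusted p = 0.0266). Neither passed in every run with 1 library left out, and scaled to the mitochondrial and spike-in rows they stood at 0.00 and 0.10. Selenocysteine tRNA, SeC-TCA-1-1, which inserts the rare amino acid of selenoproteins, had 2739, 1946, 2174 and 2344 CPM in mutants against 1792 to 2567 in wildtype and did not pass (0.16 ± 0.13 SE, edgeR adjusted p = 0.427). Arg-TCT-4-1, an arginine tRNA enriched in neurons, had 2068, 1781, 1301 and 1400.1 CPM against 1074 to 1453 and did not pass either (0.37 ± 0.14 SE, edgeR adjusted p = 0.0641).

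**Figure D2:**
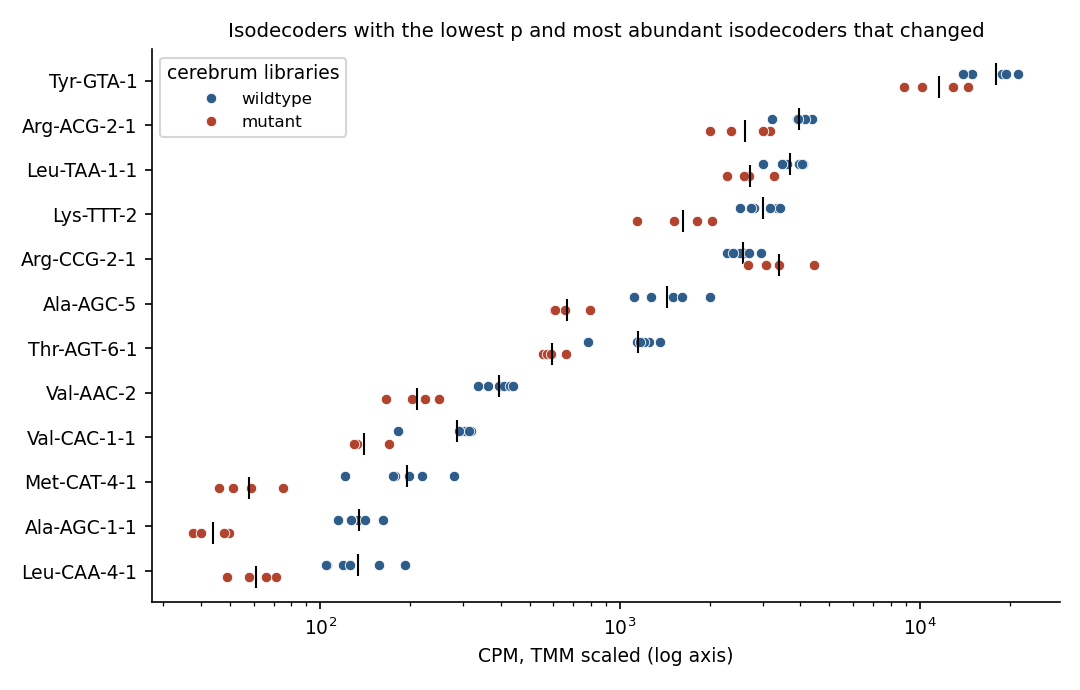
Level of 12 nuclear isodecoders in each cerebrum library, in TMM-scaled CPM on a log axis; points are libraries and black ticks are group means. The 8 isodecoders with the lowest p and the 4 with the most counts among those that changed are shown; 9 of the 12 have mutants wholly below wildtype, and Arg-CCG-2-1 is the one with higher mutants.

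TMM scaling cannot show a fall shared by most nuclear tRNAs, so the same counts were scaled to the median ratio over the 22 mitochondrial rows and the spike-in. On this scale 113 nuclear isodecoders were lower and 0 were higher (edgeR adjusted p under 0.05), where 55.3% of all 208 tRNAs tested were lower. At an unadjusted p under 0.05, 124 nuclear isodecoders were lower and 0 higher. The nuclear median was −0.48, with the middle of the distribution between −0.75 and −0.32, and 183 of 186 lay below 0. The 3 others were Arg-CCG-2-1, Cys-GCA-3 and Ser-CGA-3-1, all between 0.00 and 0.10. The 22 mitochondrial rows, which set the scale, had a median of 0.02, from −0.43 for Phe-GAA-MT to 0.18 for Val-TAC-MT, the row of mt-Tv. Of these rows 2 passed as lower and 0 as higher. On the TMM scale their median was 0.42.

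The size of the fall differed widely among nuclear isodecoders. 22 of them lay below −1, led by Met-CAT-4-1 (−2.16 ± 0.23 SE) and Ala-AGC-1-1 (−2.02 ± 0.16 SE). Ala-AGC-1-1 had 177, 225, 214 and 173 scaled counts in mutants and at least 697 in every wildtype library. Among the nuclear isodecoders with the most counts, Gln-CTG-2 changed by −0.64 and Ser-TGA-1-1 by −0.68, with mutants below all wildtype libraries for both, while Asn-GTT-3 at −0.29 and Lys-TTT-1 at −0.37 did not pass. In all, 60 nuclear isodecoders had every mutant below every wildtype library on this scale, and the background over 208 rows was 28.8%. Initiator iMet-CAT-1 stood at −0.23 ± 0.11 (SE, edgeR adjusted p = 0.0913) and SeC-TCA-1-1 at −0.24 ± 0.12 (SE, edgeR adjusted p = 0.109). With the mitochondrial total as library size 109 nuclear isodecoders were lower (53.4% of all tested were lower), and with the spike-in count 74 (35.6%), with 0 higher in both.

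**Figure D3:**
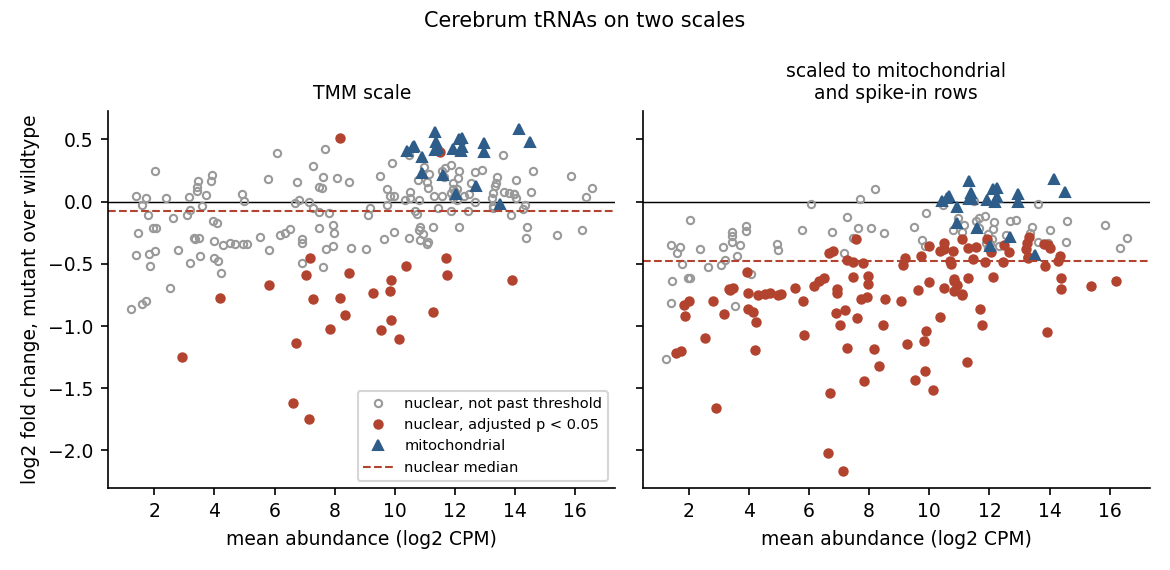
Log2 fold change of each tRNA, mutant over wildtype, against its mean abundance, with TMM scaling (left) and with scaling to the mitochondrial and spike-in rows (right). The dashed line is the nuclear median, −0.07 on the left and −0.48 on the right; the mitochondrial rows move from a median of 0.42 to 0.02.

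The authors' deposited isodecoder table gave 117 of 187 nuclear rows with an adjusted p under 0.05. Its fold changes are coded as wildtype over mutant, since all 210 of its signs were opposite to the mutant over wildtype ratio of the scaled counts, so its values of 2.02 for Ala-AGC-1-1 and 2.16 for Met-CAT-4-1 are falls in mutants. All 117 were lower in mutants. The mean levels in the authors' deposited table imply the scaling to mitochondrial and spike-in rows used above, to within a relative difference of 1.37e-06. In total 112 isodecoders were called both here on that scale and in the authors' deposited table, and the latter also held all 24 falls found with TMM. The authors' deposited anticodon table is coded the other way, as mutant over wildtype, with −1.06 for Val-AAC and −0.99 for Tyr-GTA. It had 30 of 50 nuclear anticodons lower and 0 higher.

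A comparison that depends on no scaling is the share of each isodecoder among all counts of its anticodon. Of these shares, 82 of 174 tested isodecoders passed, 47.1% in all, 48 (27.6%) lower and 34 (19.5%) higher (limma on the log2 ratio to the other isodecoders of the anticodon, adjusted p under 0.05). They came from 33 of the 42 anticodons with several isodecoders. Shares of 1 anticodon sum to a fixed total, so calls within a family are not independent. In 55 of the 174 (31.6%) all mutants lay on one side of all wildtype libraries.

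The isodecoder with the most counts in a family had a higher mean share in mutants in 31 of 42 families and a lower one in 11. Of 38 leading isodecoders tested, 20 rose and 6 fell, while of 136 other members 14 rose and 42 fell. These counts are a description and were not tested as a list.

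Apart from Gly-GCC-1, the 10 steepest losses were in isodecoders that held less than 6% of their family in wildtype on average. Met-CAT-4-1 was 0.305%, 0.327%, 0.260% and 0.263% of Met-CAT counts in mutants, and 0.717%, 1.03% and 1.21% at the lowest, median and highest wildtype library (log2 ratio −1.74 ± 0.15 SE, limma adjusted p = 1.38e-05). Ala-AGC-1-1 was 0.178%, 0.191%, 0.180% and 0.159% of Ala-AGC counts in mutants and 0.461%, 0.537% and 0.591% in wildtype (−1.57 ± 0.09 SE, limma adjusted p = 5.75e-07). The groups lay far apart for both. Leu-CAA-4-1 fell from 2.82% to 1.17% on average (−1.28), Val-CAC-1-1 from 5.83% to 2.76% (−1.13), Ser-GCT-1-1 from 3.25% to 1.53% (−1.12), Ala-AGC-5 from 5.58% to 2.69% (−1.08), Lys-TTT-2 from 3.55% to 1.88% (−0.92) and Arg-TCT-5-1 from 2.65% to 1.42% (−0.90). Trp-CCA-6-1 fell from 0.122% to 0.0517% (−1.15) with overlapping groups.

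Glycine and valine families showed the shift in their larger members. Gly-GCC-1 was 16.2%, 15.1%, 13.7% and 11.6% of Gly-GCC counts in mutants and 21.2%, 24.7% and 27.4% at the lowest, median and highest wildtype library (−0.97 ± 0.14 SE, limma adjusted p = 0.000351). Gly-GCC-4-1, the leading member, was at 75.4%, 76.1%, 77.3% and 79.5% in mutants and at 64.7%, 66.7% and 70.5% in wildtype (0.71 ± 0.10 SE, limma adjusted p = 0.000351). Every mutant lay below all wildtype libraries for Gly-GCC-1 and above all of them for Gly-GCC-4-1. In the Val-CAC family Val-CAC-2 went from 85.5% to 91.7% (0.91), with mutants at 90.2% to 93.1% and wildtype at 83.3% to 88.1%. In the Val-AAC family the order of loss and gain differed: the leading member Val-AAC-2 fell from 42.3% to 35.2% (−0.43), and Val-AAC-5-1 was 29.5%, 24.7%, 31.0% and 30.4% in mutants against 16.2%, 20.1% and 22.3% in wildtype (0.75 ± 0.13 SE, limma adjusted p = 0.000867).

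The Tyr-GTA family, with introns, also lost from its leading member. Tyr-GTA-1 fell from 88.3% to 84.7% of the family (log2 ratio −0.44), while Tyr-GTA-4-1 rose from 9.58% to 12.5% (0.42), Tyr-GTA-3 from 0.774% to 1.12% (0.53) and Tyr-GTA-2-1 from 0.555% to 0.852% (0.60). These are gains of share: in level, no Tyr-GTA member lay above 0.02 on the TMM scale. Lys-TTT-1 rose from 96.3% to 98.0% (0.88), Leu-AAG-1 from 80.3% to 84.9% (0.46), Ser-CGA-3-1 from 0.744% to 1.12% (0.58) and Ser-CGA-1-1 from 6.87% to 8.87% (0.39, lost without several single libraries). Arg-TCT-4-1 rose from 18.1% ± 1.68 (SD, n = 6) to 21.6% ± 1.75 (SD, n = 4) of Arg-TCT counts (0.33 ± 0.10 SE, limma adjusted p = 0.0159), with mutant 3, at 20.2%, level with the highest wildtype library. In the initiator family no shift was detected: iMet-CAT-1 was 97.8% in both groups, and none of the 3 members passed.

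**Figure D4:**
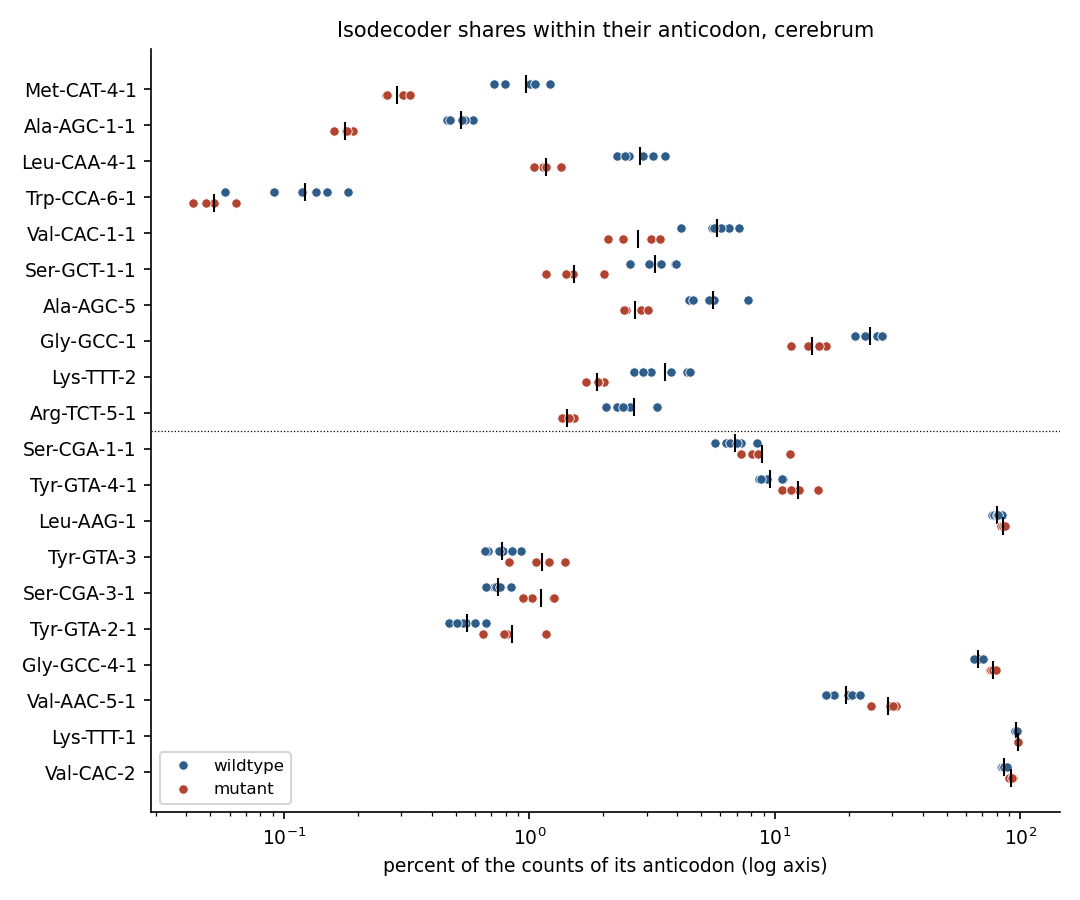
Share of each isodecoder among the counts of its anticodon, per cerebrum library, on a log axis; points are libraries and black ticks are group means. Above the dotted line are the 10 steepest losses and below it the 10 largest gains; Gly-GCC-1 falls from 24.4% to 14.2% while Gly-GCC-4-1 rises from 67.3% to 77.1%.

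Counts were also summed over the isodecoders of an anticodon. On the TMM scale, of 50 nuclear anticodons 2 fell and 0 rose (edgeR adjusted p under 0.05), and over the 72 anticodon pools tested, mitochondrial ones included, 2.78% were lower and 11.1% differed in either direction. Val-AAC had 453, 621, 654 and 583 CPM in mutants and 797, 992 and 1107 CPM at the lowest, median and highest wildtype library, with no overlap (−0.73 ± 0.15 SE, edgeR adjusted p = 0.00126). Tyr-GTA had 11089, 16242, 10559 and 15103 CPM in mutants and 16155, 22258 and 23543 CPM in wildtype, where mutant 2 lay just above wildtype 6 (−0.65 ± 0.14 SE, edgeR adjusted p = 0.00126). The next by p, Ser-TGA (−0.34, edgeR adjusted p = 0.0956) and Ser-GGA (−0.47, edgeR adjusted p = 0.151), did not pass. Methionine, whose isodecoder Met-CAT-4-1 fell most, had an elongator pool at −0.07 ± 0.14 (SE, edgeR adjusted p = 0.898).

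Without mutant 1 the count of nuclear anticodons rose from 2 to 8, and without any other single library it stayed at 2. Scaled to the mitochondrial and spike-in rows, 30 nuclear anticodons were lower and 0 higher (45.8% of 72 lower), and all 50 were below 0. The lower pools among the 72 also included the mitochondrial Phe-GAA-MT, Ser1-TGA-MT and Tyr-GTA-MT. The nuclear anticodons ran from Val-AAC at −1.06, a change of −52.1%, and Tyr-GTA at −0.99, a change of −49.8%, to Cys-GCA at −0.08, which did not pass. With the spike-in alone 5 passed (6.94% of 72), Gln-CTG, Ser-CGA, Ser-TGA, Tyr-GTA and Val-AAC.

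Across groups of tRNAs, the members that fell were spread by role. Isodecoders whose anticodon begins with A held 8 falls of 34 on the TMM scale (median −0.18), those with C 7 of 65 (−0.05), with G 5 of 41 (−0.05) and with T 4 of 46 (−0.03), where all nuclear tRNAs held 24 of 186 (−0.07). Families with introns held 4 of 16 (−0.06), and tRNAs with a long variable arm 4 of 31 (−0.09). The 8 tRNAs that are the only isodecoder of their anticodon held 0 falls, with a median of 0.05. Whether this differs from the 12.9% of all nuclear tRNAs that fell was not tested. On the mitochondrial and spike-in scale 4 of the 8 were lower, at a median of −0.36. On that scale 113 of all 186 nuclear tRNAs were lower, at a median of −0.48. Among the 8, Gly-ACC and Sup-TCA had means of only 25.9 and 46.2 counts per library. Rows whose name has a further number after that of the isodecoder held 19 of 130 (median −0.16), and rows without it 5 of 56 (median 0.03). Abundance also differed between these rows, with a median wildtype level of 186 CPM in the former and 3202 CPM in the latter. By counts, the lowest, middle and highest terciles held 5, 15 and 4 falls of 62 each, with medians of −0.26, −0.21 and 0.06. Fold change and abundance had a Spearman rho of 0.36 over the 186 nuclear tRNAs, which share libraries and depth.

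The effect in cerebrum was set against the cerebellum of the same design, with 5 mutant and 6 wildtype libraries. The genotype effect differed between tissues for 10 of 204 tRNAs (4.9%; edgeR interaction term, adjusted p under 0.05), and all 10 were among the 24 cerebrum falls. In this fit, which has no term for the animal, each was less negative in cerebellum. The labels do not say whether both tissues came from the same mice. Leu-CAA-4-1 stood at −1.13 in cerebrum and 0.05 in cerebellum, a difference of 1.18 ± 0.28 (SE, edgeR adjusted p = 0.0099), and Thr-AGT-6-1 at −0.96 and −0.03 (difference 0.91 ± 0.20 SE, edgeR adjusted p = 0.0092). Tyr-GTA-1 stood at −0.63 and 0.13 (difference 0.74). Met-CAT-4-1 and Ala-AGC-1-1, the steepest falls in cerebrum, stood at −0.47 and −0.63 in cerebellum. Over the 24 cerebrum falls the median was −0.78 in cerebrum and −0.09 in cerebellum, where 17 lay below 0 and 1 passed. The 24 were chosen on the cerebrum values, so the cerebrum median is a description.

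These differences depend on the scaling. With the mitochondrial total as library size 7 of the 10 differed, and with the mitochondrial and spike-in rows 0 did by edgeR (22 nuclear tRNAs at an unadjusted p under 0.05 were less negative in cerebellum and 1 more negative). Without cerebellum mutant 5 the count was 20. The cerebellum libraries also fell into separate depths, with 1 mutant and 5 wildtype libraries at 1612754 to 2272675 counts and 4 mutant and 1 wildtype at 4831721 to 7110313, and the part of this split in the difference between tissues was not tested.

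Changes of share, which do not depend on the scaling, were compared between tissues in the same way. In 32 of 169 isodecoders (18.9%) the change of share differed (limma interaction, adjusted p under 0.05), and 29 of these had also changed in cerebrum. This fit had no term for the animal either, and the share comparison was not run with one. In 30 of the 32 the change was larger in absolute size in cerebrum. In 15 of the 32 the share changed in opposite directions in cerebrum and cerebellum. Met-CAT-1, for example, changed by 0.23 in cerebrum and −0.23 in cerebellum, while some of the other cerebellum values were near 0. In cerebellum alone 17 of 170 shares passed (10%). Val-CAC-2 changed by 0.91 in cerebrum and 0.04 in cerebellum (difference −0.87 ± 0.15 SE, limma adjusted p = 0.000343), and Leu-CAA-4-1 by −1.28 and −0.09 (difference 1.19 ± 0.16 SE, limma adjusted p = 5.78e-05). Ser-GCT-1-1 changed by −1.12 and 0.00. Other members moved the same way in both tissues: Gly-GCC-1 changed by −0.97 in cerebrum and −0.43 in cerebellum, and Gly-GCC-4-1 by 0.71 and 0.28, with the difference between tissues past the threshold for both. Ser-CGA-3-1 changed by 0.58 and 0.81, and that difference did not pass (limma adjusted p = 0.375). With any 1 of the 21 libraries left out, 25 to 37 shares differed between tissues.

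**Figure D5:**
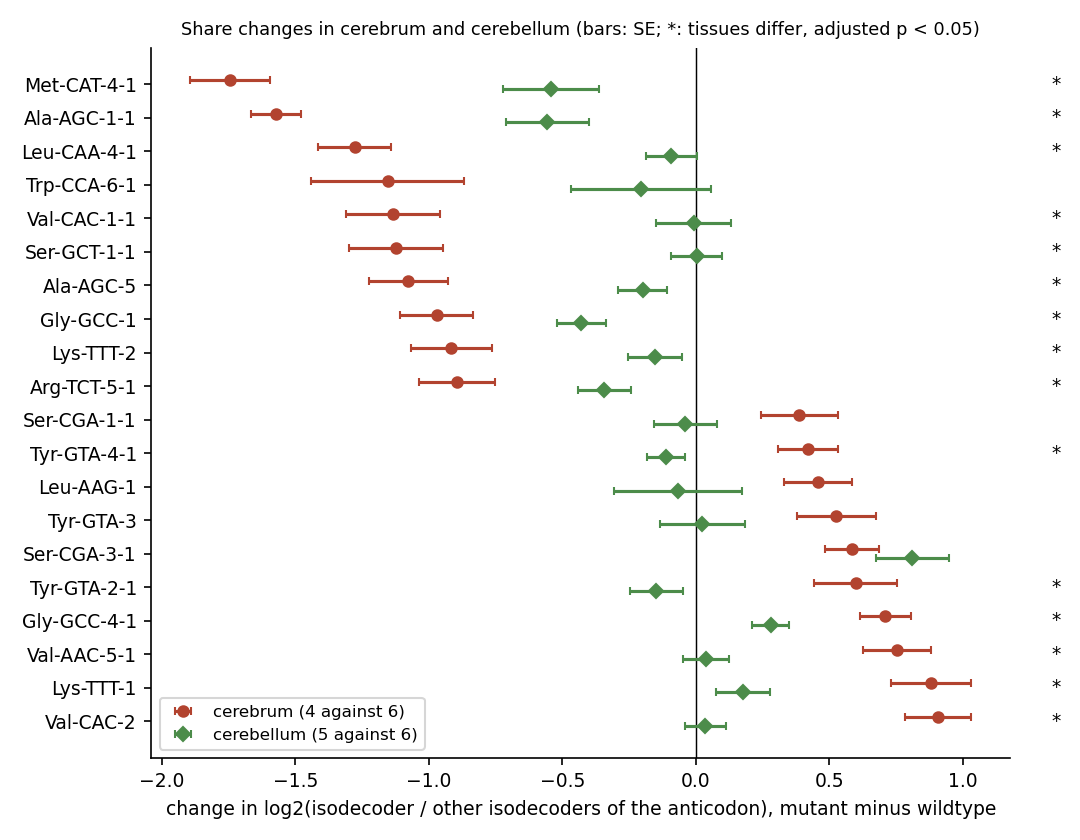
Change of the log2 ratio of an isodecoder to the other isodecoders of its anticodon, mutant minus wildtype, in cerebrum (circles) and cerebellum (diamonds), for the isodecoders with the 10 steepest losses and the 10 largest gains of share in cerebrum. Bars are SE and stars mark a difference between tissues with adjusted p under 0.05. Cerebellum points lie closer to 0 than cerebrum points for all but Ser-CGA-3-1. These isodecoders were chosen on their cerebrum values, which favors that pattern, so it is a description.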

How the data were processed

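The cerebrum libraries were made with QuantM-tRNA-seq from Trizol-extracted total RNA, per the labels' protocols. The submitters' processing notes name cutadapt, Bowtie2, featureCounts and DESeq2, with mm10 as the genome build, and the sources used here state no versions or settings. The authors deposited raw counts per tRNA, whole numbers that were not normalized. The authors' deposited cerebrum tables, per the file headers, also hold a mean signal per row, log2 fold changes, a test score and p-values; they were used only where named.

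Counts without the spike-in row were fitted with edgeR 4.0.16 and limma 3.58.1 in R 4.3.3: filterByExpr (minimum count 10), TMM, robust quasi-likelihood fits on genotype alone, two-sided tests and Benjamini-Hochberg adjustment over all rows tested, threshold 0.05. CPM are TMM-scaled. Standard errors of fold changes were derived from the F statistic. Shares used limma with trend and robust settings on log2 ratios with 0.5 added to both counts; in anticodons with 2 isodecoders only the less abundant was tested. Pool ratios used exact two-sided permutation tests. Of these steps, the isodecoder test with TMM and the share test were run on simulated counts. The simulated rises and falls were equal in number, and the other steps were not simulated. Total counts of 4353056 to 7588902 per library and the 4 and 6 libraries set the precision.

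Alternatives were RLE factors, library totals, mitochondrial, spike-in and joint reference scaling, nuclear rows only, DESeq2 1.42.0, limma-voom, other filters and offsets, array weights, sex as a covariate or 1 sex alone, a replicate block, a joint fit with cerebellum, and leaving out each library; the joint reference, sex-wise shares, cerebellum omissions and the share comparison between tissues were chosen after seeing the data. Named isodecoders are all nuclear ones that passed, with values per library for the 8 lowest p and the 4 with the most counts; named shares are the 10 lowest and 10 highest of those passing; anticodons are those with the lowest p; initiator, SeC-TCA and Arg-TCT-4-1 rows are always named. Other names were chosen after their values were seen. Members and lists were chosen with earlier results of these data known. The wildtype library with an irregular title was placed by its genotype label.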

Additional observations from a re-analysis of the deposited data

Results flagged for a closer look

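Among 98 groups of 4 or 6 libraries checked for a library far from the rest, 7 held one, and chance alone gives about 1 in 20. Val-CAC-1-1 stood at 169.2 CPM in mutant 2, above the other mutants, and at 181.5 CPM in wildtype 6, below the other wildtype libraries. Thr-AGT-5-1 stood at 511.7 CPM in mutant 2, above the other mutants, and Val-CAC-3-1 at 326.1 CPM in wildtype 6, below the other wildtype libraries. The share of Ala-AGC-5 in its anticodon was 7.75% in wildtype 5, above the others. Wildtype 1 had the highest nuclear count per mitochondrial count, 8.65, and the lowest mitochondrial share of tRNA counts, 10.4%.

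The genotype effect differed between tissues for 10 isodecoders (edgeR interaction term, cerebellum minus cerebrum, log2): Met-CAT-4-1 by 1.28, Leu-CAA-4-1 by 1.18, Val-CAC-1-1 by 1.01, Ala-AGC-1-1 by 0.97, Ser-GCT-1-1 by 0.96, Thr-AGT-6-1 by 0.91, Ala-AGC-5 by 0.81, Thr-AGT-5-1 by 0.74, Tyr-GTA-1 by 0.74 and Val-AAC-2 by 0.63. Ala-AGC-5, Ser-GCT-1-1 and Val-AAC-2 did not pass in every run with 1 library left out.

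The change of share within the anticodon differed between tissues for 15 of the 20 named isodecoders (limma interaction, cerebellum minus cerebrum, log2 ratio). The 20 were chosen on their cerebrum changes, and over all 169 tested 32 (18.9%) differed. Those with a loss in cerebrum differed by 1.20 for Met-CAT-4-1, 1.19 for Leu-CAA-4-1, 1.13 for Val-CAC-1-1, 1.13 for Ser-GCT-1-1, 1.01 for Ala-AGC-1-1, 0.88 for Ala-AGC-5, 0.76 for Lys-TTT-2, 0.55 for Arg-TCT-5-1 and 0.54 for Gly-GCC-1. Those with a gain differed by −0.87 for Val-CAC-2, −0.75 for Tyr-GTA-2-1, −0.72 for Val-AAC-5-1, −0.70 for Lys-TTT-1, −0.53 for Tyr-GTA-4-1 and −0.43 for Gly-GCC-4-1.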

How the results depend on the processing

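No named isodecoder, share, anticodon or tissue difference that passed changed direction under any alternative run. Isodecoders that did not pass did turn: between TMM and the joint reference rows, iMet-CAT-1 went from 0.17 to −0.23, iMet-CAT-2-1 from 0.16 to −0.25, iMet-CAT-3-1 from 0.19 to −0.21, SeC-TCA-1-1 from 0.16 to −0.24, Arg-TCT-4-1 from 0.37 to −0.03, Asn-GTT-3 from 0.11 to −0.29 and Lys-TTT-1 from 0.03 to −0.37. The count of 26 nuclear isodecoders became 109 with the mitochondrial total, 74 with the spike-in count, 113 with the joint reference rows, 12 in males alone and 22 to 36 with 1 library left out. Lower against higher calls were 24 and 2 with TMM, 23 and 5 with RLE, 24 and 12 with DESeq2, 25 and 0 with library totals, and 21 and 7 in the joint fit with cerebellum; the nuclear median moved from −0.07 to −0.46 with the mitochondrial total. The count of 82 shares became 44 in males alone, 41 in females alone and 69 to 83 with 1 library left out. The count of 2 anticodons became 24 with the mitochondrial total, 5 with the spike-in, 30 with the joint reference rows, 5 with DESeq2 and 2 to 8 with 1 library left out. The count of 10 tissue differences became 0 with the joint reference rows (22 and 1 nuclear tRNAs in either direction at an unadjusted p under 0.05 in edgeR) and 7 to 20 with 1 library left out. The nuclear pool per mitochondrial count was −0.39 in males and −0.40 in females, both short of the threshold, and −0.46 to −0.35 with 1 library left out; per spike-in count these were −0.53, −0.14 and −0.44 to −0.29. The smaller counts in single sexes come with fewer libraries.

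The numbers of mutants and wildtype libraries do not pair them: same-numbered deviations correlated at 0.56, 0.10, −0.28 and 0.29, and 1 of 4 mutants correlated best with its own number. With replicate number as a block across genotypes, 48 nuclear isodecoders (37 lower, 11 higher), 57 shares (38 lower, 19 higher) and 10 anticodons (all lower) passed. The tissue comparison used another block, which joined cerebrum and cerebellum libraries of the same genotype and number. With that block 26 tissue differences passed. Of those 26, 17 had a positive difference (cerebellum minus cerebrum), the 10 above among them, and 9 a negative one, so the single direction of the tissue differences was lost under the block. Between tissues, the sexes of all 10 same-numbered pairs matched, 5 of the 10 pairs correlated above 0.1 (range −0.17 to 0.45), and 4 matched best with their own number.

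Of 26 isodecoders, 7 did not pass in every run with 1 library left out: Arg-CCG-2-1, Cys-GCA-3, Gln-TTG-2-1, Leu-TAA-1-1, Met-CAT-3-1, Met-CAT-6-1 and Tyr-GTA-5-1. Of 20 shares 1 did not (Ser-CGA-1-1), and of the 2 anticodons that fell, 0 lost the call. Depth limits the rarest rows: 24 nuclear tRNAs had a mean under 50 counts per library.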
